A study of Mus musculus with 6 samples.

Results

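The core loop of the circadian clock was examined in the prefrontal cortex (PFC) of mice through 10 genes, which were the rows with these symbols among the 54429 genes of each library. The activator arm held Arntl (which encodes BMAL1), Clock and Npas2, and the repressor arm held Per1, Per2, Per3, Cry1, Cry2, Nr1d1 and Nr1d2. The study sequenced bulk PFC RNA of mice aged 6 months, with 3 groups of 2 libraries each. WT mice of the C57BL/6 x C3H cross and PS19 mice received vehicle, which was saline with DMSO, and a second group of PS19 mice received UNC0642. PS19 mice carry a human tau transgene with the P301S mutation, driven by the mouse Prnp promoter, so that the mutant protein is made in many neurons and not in the PFC alone. UNC0642 is a small-molecule inhibitor of EHMT1 and EHMT2, the enzymes that add the repressive H3K9me2 mark to histones, and mice received it in 3 daily intraperitoneal injections of 1 mg/kg, with tissue taken 24 h after the last injection. Mice were kept on a 12-h light and dark cycle. The time of day at which each brain was taken is not given in the sources used here, and these transcripts are known to cycle over the day. WT mice given UNC0642 were not analysed here.

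In the clock loop, BMAL1 pairs with CLOCK or NPAS2 and switches on the Per, Cry and Nr1d genes through E-box elements in their promoters. PER and CRY proteins return to the nucleus and block the pair that induced them. NR1D1 and NR1D2, known as REV-ERB alpha and beta, close another loop by repressing Arntl through ROR response elements (RREs). Cortical cells run this loop under the lead of the suprachiasmatic nucleus, and in the forebrain Per1 and Per2 also respond to neuronal activity and to glucocorticoid hormone.

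Promoter windows were taken from RefSeq (GRCm38.p6) for 9 of the 10 genes, 13 windows in all, each running from 250 bases before a transcription start to 50 bases after it. They were searched on both strands for the E-box CACGTG, the E'-box CACGTT, the D-box TTANGTAA, the RRE TAGGTCA, the half-site TGACG of the cAMP response element (CRE) and the glucocorticoid response element ACANNNTGT. No matches overlapped one another. Shown are Per1, Cry1 and Nr1d2, which rose together in Tau mice, Nr1d1, which fell after UNC0642, and the match in Arntl, the target of the NR1D proteins. The bases upstream of the start are printed 5′ to 3′ on the strand of the gene, with motif matches in capitals. They lie at chr11:69098699-69098948 (plus strand) for Per1, chr10:85185055-85185304 (minus strand) for Cry1, chr11:98775378-98775627 (minus strand) for Nr1d1, chr14:18239107-18239356 (minus strand) for Nr1d2 and chr7:113207530-113207559 (plus strand) for Arntl.
Per1: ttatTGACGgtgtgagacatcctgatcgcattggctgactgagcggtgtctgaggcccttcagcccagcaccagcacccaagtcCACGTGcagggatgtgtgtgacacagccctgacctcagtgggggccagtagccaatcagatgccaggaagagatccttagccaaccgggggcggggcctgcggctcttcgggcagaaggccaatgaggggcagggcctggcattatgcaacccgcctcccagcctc
Cry1: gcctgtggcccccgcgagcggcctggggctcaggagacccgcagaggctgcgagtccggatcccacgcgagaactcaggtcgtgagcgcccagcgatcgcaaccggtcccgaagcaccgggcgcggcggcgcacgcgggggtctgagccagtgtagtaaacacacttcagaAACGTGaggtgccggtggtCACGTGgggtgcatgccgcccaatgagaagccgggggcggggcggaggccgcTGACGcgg
Nr1d1: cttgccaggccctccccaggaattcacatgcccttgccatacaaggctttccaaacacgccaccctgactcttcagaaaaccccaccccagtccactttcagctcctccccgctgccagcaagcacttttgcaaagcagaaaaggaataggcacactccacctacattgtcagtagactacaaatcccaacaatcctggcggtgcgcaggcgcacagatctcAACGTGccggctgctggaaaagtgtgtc
Nr1d2: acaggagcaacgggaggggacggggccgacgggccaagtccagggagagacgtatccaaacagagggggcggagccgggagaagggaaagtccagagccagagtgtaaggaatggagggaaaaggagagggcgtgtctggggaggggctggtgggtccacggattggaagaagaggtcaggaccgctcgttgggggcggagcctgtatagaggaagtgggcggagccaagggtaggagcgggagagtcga
Arntl: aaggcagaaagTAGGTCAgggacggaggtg

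Per1 held an E-box 166 bases and a CRE half-site 246 bases before its start, and Cry1 held an E-box at 60 bases, an E'-box at 79 bases and a CRE half-site at 8 bases. An E'-box lay 28 bases before the start of Nr1d1. The window of Nr1d2 matched none of the 6 motifs. In Arntl the RRE stood 31 bases after a start, in the 30 bases printed. Among windows not printed, Cry2 held an E'-box at 166 bases and a CRE half-site at 209 bases, Per3 held D-boxes at 205 and 158 bases, and a second start of Per1 had a CRE half-site at 132 bases. Of all 32851 RefSeq windows of this length, 7.15% held the E-box, 4.68% the E'-box, 2.32% the D-box, 2.61% the RRE, 20.8% the CRE half-site and 6.85% the glucocorticoid element, which was in none of the 13 windows. Per2 has no window among them. A match is a run of letters and was not tested as a binding site.

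The libraries held 17005664 to 28972176 counts, and the 10 genes had 358 to 5865 counts each in every library. All 10 passed the filter on low counts that left 20409 genes. Levels are given as CPM, counts relative to the TMM-scaled library total, and SDs over the 2 libraries of a group. The excitatory neuron genes Slc17a7, at 846 to 1016 CPM, Tbr1, at 58.2 to 85.6 CPM, and Neurod6, at 91.3 to 128 CPM, were present in every library. Six6, Lhx1 and Nms, which mark the suprachiasmatic nucleus, had 0 counts in every library, Avp and Prok2 had at most 6, and Vip, which cortical interneurons also make, was at 37.2 to 52.1 CPM. The enzymes that UNC0642 inhibits were at 43.6 to 49.0 CPM for Ehmt1 and 131 to 161 CPM for Ehmt2, and neither was called in any comparison. Some features of the libraries bear on the comparisons. Prnp, whose promoter drives the transgene, was at 1652 CPM in the library labelled WT replicate 1, at 873 CPM in WT replicate 2 and from 1470 to 1694 CPM in both groups of PS19 mice. Mapt, which encodes tau, was at 576, 449 and 570.5 to 614 CPM in the same order. In both genes the library labelled WT replicate 1 went against its label. All WT means depend on it. Values without it are given too for clock genes called against WT and for the lists whose calls against WT are reported. Xist, the RNA of the inactive X chromosome, was at 191 to 317 CPM in WT replicate 2 and both Tau libraries and at 0.118 to 0.197 CPM in the library labelled WT replicate 1 and both UNC0642 libraries. Uty, a gene of the Y chromosome, was at 0 to 0.0781 CPM in the Xist-high libraries and at 52.6 to 53.55 CPM in the Xist-low ones. The Xist-high pattern is the female and the Xist-low pattern the male one. Treatment and this pattern cannot be told apart between untreated and treated Tau mice. Without the library labelled WT replicate 1, the WT group is 1 Xist-high library, so the same then holds between WT and treated Tau mice. Summed oligodendrocyte genes were at 1327 to 2709 CPM in WT, 1878 and 5114 CPM in Tau replicates 1 and 2 and 1945 to 2076 CPM after UNC0642, and summed striatal genes were at 63.6 to 70.6, at 78.2 and 166, and at 69.5 to 73.7 CPM in the same order. Summed microglial genes were at 238 to 282, 295 to 302 and 263 to 266 CPM in that order, meningeal fibroblast genes at 41 to 61, 34 to 44 and 41 to 42 CPM, and astrocyte genes at 1009 to 1061 CPM in all libraries. No gene of these lists was at 0 in every library. In whole tissue, fewer cells of a type and less RNA per cell cannot be told apart.

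Levels of the clock genes were set in order over all 6 libraries. Per kilobase of exon and averaged over the 6 libraries, Nr1d2 was highest at 33.9 CPM per kb, followed by Cry2 at 19.6 and Clock at 15.1. The ranges of these 3 genes over the libraries, 28.8 to 41.4, 17.9 to 22.3 and 13.8 to 16.7 CPM per kb, did not overlap. Nr1d1 at 11.5, Per1 at 9.25, Npas2 at 8.31 and Per2 at 7.10 CPM per kb followed with overlapping ranges. Per3 at 5.69, Cry1 at 5.67 and Arntl at 5.55 CPM per kb were lowest, with overlapping ranges over the 6 libraries. This order did not hold within each group. Per2 was the lowest of the 10 in WT, at a mean of 4.46 CPM per kb, and stood at 10.1 in Tau. Nr1d1, at 7.69 CPM per kb after UNC0642, was there below Per1 at 8.64 and Npas2 at 8.63. In Tau both libraries of Arntl, at 4.66 and 4.54 CPM per kb, were below those of Per3, at 5.73 and 5.86, and of Cry1, at 5.97 and 6.34. Annotated exons of Nr1d1 share 263 bases, 8.55% of its exon length, with Thra on the opposite strand, and Thra stayed between 411 and 447 CPM in all 6 libraries. Cry2 shares 295 exon bases with D930015M05Rik, which was at 0.358 to 1.58 CPM, and Arntl shares 33 exon bases with the antisense gene Gm45355, which had 0 to 4 counts in each library and was not tested.

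**Figure D1:**
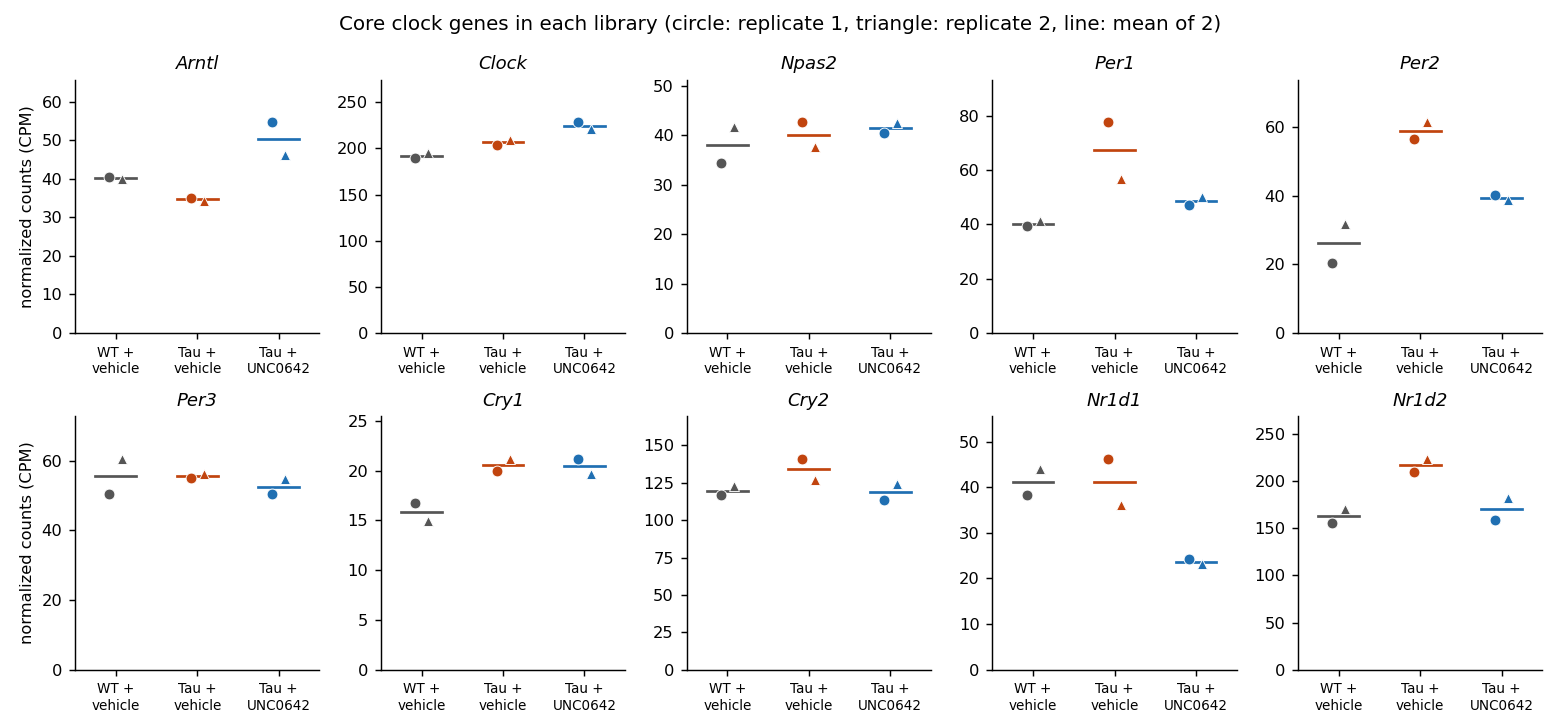
Level of each of the 10 core clock genes (y axis, CPM, starting at 0) in the 6 libraries, by group on the x axis. Circles are replicates 1, triangles are replicates 2 and lines are means of 2. Per2 stood at 20.4 and 31.8 CPM in WT, 56.5 and 61.5 in Tau and 40.3 and 38.8 after UNC0642, and Nr1d1 was lower in both UNC0642 libraries, at 24.3 and 23.1 CPM, than in the other 4.

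The comparison of P301S Tau mice with WT mice, both on vehicle, asked which clock transcripts differ in the mutant. The test was edgeR's quasi-likelihood test on all 6 libraries, and a gene was called at the study's limits, a 1.2-fold difference with an unadjusted p-value under 0.05. Per1, Per2, Cry1 and Nr1d2 rose, and no clock gene fell. All 4 belong to the repressor arm, and 4 of the 10 genes compare with 9.81% of all genes called in either direction, 3.72% higher and 6.1% lower. After adjustment 1 clock gene, Per2, was under 0.05 in this test, beside 0.157% of all genes, and 1, also Per2, in limma-voom. The DESeq2 Wald test put 3 under 0.05, Per2, Per1 (adjusted p = 0.00019) and Nr1d2 (adjusted p = 0.0169), beside 0.977% of the genes to which it gave an adjusted p. With no filter on low counts edgeR put the same 3 genes under 0.05, beside 1.9% of all genes then tested. Per2 was over 0.05 in edgeR with only these 2 groups (adjusted p = 0.116), with a term for the Xist pattern (adjusted p = 0.0501) and in 4 of the 6 fits without a single library, those without either Tau or either UNC0642 library (adjusted p of 0.0683 to 0.186).

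Per2 (chr1:91415982-91459324, minus strand, GRCm38), a repressor whose protein binds CRY, was at 20.4 and 31.8 CPM in the library labelled WT replicate 1 and in WT replicate 2, and at 56.5 and 61.5 CPM in Tau replicates 1 and 2. Both Tau libraries lay above both WT libraries. Its log2 fold change was 1.18 ± 0.17 (SE, adjusted p = 0.0409), and it was 0.89 without the library labelled WT replicate 1. Per1 (chr11:69095217-69109960, plus strand), an early responder to light and hormones, was at 39.3 and 41.1 CPM in WT and at 77.8 and 56.9 CPM in Tau. The groups did not overlap, but the Tau libraries lay far apart from each other. Its log2 fold change was 0.75 ± 0.13 (SE, adjusted p = 0.0827), and it was 0.71 without the library labelled WT replicate 1 and 0.50 without Tau replicate 1. Per3 (chr4:151003652-151044665, minus strand), the member least needed for rhythms in mice, was at 50.5 and 60.6 CPM in WT and 55.0 and 56.3 CPM in Tau. The WT libraries enclosed the Tau libraries, and the log2 fold change was 0.00 ± 0.11 (SE, adjusted p = 0.996).

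Nr1d2 (chr14:18204054-18239127, minus strand) was at 156 and 171 CPM in WT and at 210 and 224 CPM in Tau. Both Tau libraries were higher, by a log2 fold change of 0.41 ± 0.09 (SE, adjusted p = 0.170), and the value was 0.34 without the library labelled WT replicate 1. Nr1d1 (chr11:98767932-98775333, minus strand), its close relative, was at 38.3 and 44.1 CPM in WT and at 46.3 and 36.1 CPM in Tau. The groups overlapped, with a log2 fold change of 0.00 ± 0.13 (SE, adjusted p = 0.994). Cry1 (chr10:85131700-85185064, minus strand), the stronger repressor of the CRY pair, was at 16.7 and 14.9 CPM in WT and at 19.95 and 21.2 CPM in Tau. Tau libraries lay above WT libraries, with a log2 fold change of 0.38 ± 0.12 (SE, adjusted p = 0.299). The call on Cry1 was lost without WT replicate 2, at 0.30, and without Tau replicate 2, at 0.34, whereas the value was 0.46 without the library labelled WT replicate 1. Cry2 (chr2:92403646-92434043, minus strand) was at 117 and 123 CPM in WT and at 141 and 127 CPM in Tau, a log2 difference of 0.16 ± 0.09 (SE, adjusted p = 0.469) that was not called.

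None of the 3 activators was called. Arntl (chr7:113207465-113314126, plus strand) was at 40.3 and 40.0 CPM in WT and at 35.1 and 34.2 CPM in Tau. It was the only one of the 10 genes with both Tau libraries below both WT libraries, and its log2 fold change was -0.21 ± 0.11 (SE, adjusted p = 0.439). With library size alone in place of TMM it was called, at -0.28. Clock (chr5:76209868-76304792, minus strand) was at 189.5 and 195 CPM in WT and at 204 and 209 CPM in Tau, a log2 difference of 0.10 ± 0.07 (SE, adjusted p = 0.580). Npas2 (chr1:39193731-39363236, plus strand), which can stand in for Clock in the forebrain, overlapped between groups at 34.3 and 41.7 CPM in WT and 42.7 and 37.6 CPM in Tau.

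Over the arm as a whole, all 7 repressors had a log2 fold change above 0, from 0.00 in Per3 and Nr1d1 to 1.18 in Per2, with a median of 0.38, while the median of all genes tested was -0.00011. The positive sign of Per3 and Nr1d1 turned under other settings. In 5 of the 7 repressors and in Clock both Tau libraries lay above both WT libraries, which 21.9% of all genes showed, and 21.4% showed the opposite order found for Arntl (43.2% in either direction). Without the library labelled WT replicate 1 the same number of genes, 4, was called. Without either WT replicate 2 or Tau replicate 2 it was 3. Endothelial genes were lower in Tau, with 2 of 5 called and summed levels of 108 to 116 CPM in WT and 81.3 to 85.6 CPM in Tau. Striatal genes were higher, with 6 of 6 called, and so were 3 of 6 oligodendrocyte genes. Of all genes, 3.72% were called higher and 6.1% lower. Without the library labelled WT replicate 1, log2 fold changes ran from -0.84 (Cldn5) to -0.14 (Ly6c1) in endothelial genes. They then ran from 0.72 (Ppp1r1b) to 1.61 (Adora2a) in striatal and from 1.13 (Cldn11) to 1.68 (Mobp) in oligodendrocyte genes. The part of these cell types in the clock differences was not tested. Without Tau replicate 2, the library with the high oligodendrocyte and striatal levels, Per2 was at 1.12 and Per1 at 0.95. That fit leaves only Tau replicate 1, where Per1 was highest, at 77.8 CPM, and summed endothelial genes were at 81.3 CPM.

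UNC0642-treated Tau mice were next compared with untreated Tau mice, to see how the same transcripts differed between them. Treatment and the Xist pattern coincide in this comparison. The untreated Tau libraries also stood in the comparison with WT, so that a value high in them by chance would count in both, with opposite signs. Arntl rose, and Per1, Per2, Nr1d1 and Nr1d2 fell. These 5 of 10 genes compare with 7.69% of all genes called in either direction, 3.73% higher and 3.95% lower. After adjustment, 0 clock genes were under 0.05 in edgeR's quasi-likelihood test, beside 0.0196% of all genes, and 0 in limma-voom, while 5 had an unadjusted p-value under 0.05 and 5 were called by the DESeq2 Wald test and 5 by limma-voom. The adjusted count turned on the tool and the filter. It was 2 in the DESeq2 Wald test, Nr1d1 (adjusted p = 0.00057) and Arntl (adjusted p = 0.0189), beside 0.403% of the genes with an adjusted p, and with no filter on low counts all 5 were under 0.05 in edgeR, beside 1.4% of all genes then tested. With a term for the Xist pattern in the fit, 2 of the 5 calls, those of Arntl and Nr1d1, were still made. The term is set by the WT libraries alone, and the library labelled WT replicate 1 went against its label in Prnp and Mapt. It therefore cannot separate treatment from the Xist pattern.

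Nr1d1 (REV-ERB alpha) was at 46.3 and 36.1 CPM in the untreated Tau libraries and at 24.3 and 23.1 CPM in the UNC0642 libraries. Both treated libraries lay below all 4 libraries of the other groups. It fell by 0.80 ± 0.14 on the log2 scale (SE, adjusted p = 0.144), and by 0.60 with the Xist term. Its overlapping neighbour Thra had a log2 difference of 0.04 in this comparison. Nr1d2 was at 210 and 224 CPM in untreated and at 158 and 183 CPM in treated Tau mice. Both treated libraries were lower, with a log2 fold change of -0.35 ± 0.09 (SE, adjusted p = 0.394), which was -0.25 and not called without UNC0642 replicate 1 and -0.21 and not called with the Xist term.

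Arntl, the target of these repressors, was at 35.1 and 34.2 CPM in Tau and at 54.7 and 46.1 CPM after UNC0642. Both treated libraries were above all 4 others. The log2 fold change was 0.54 ± 0.11 (SE, adjusted p = 0.233), and it was 0.53 with the Xist term and 0.41 without UNC0642 replicate 1. Clock was at 204 and 209 CPM in Tau and at 229 and 221 CPM after treatment, higher in both treated libraries by a log2 difference of 0.12 ± 0.07 (SE, adjusted p = 0.649), which was not called. Npas2 was at 40.4 and 42.3 CPM after treatment, within the range of the untreated Tau libraries.

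Per2 was at 56.5 and 61.5 CPM in untreated and at 40.3 and 38.8 CPM in treated Tau mice. The treated libraries lay between those of WT and untreated Tau. Its log2 fold change was -0.58 ± 0.17 (SE, adjusted p = 0.415), but with the Xist term it was 0.060. That term rests on the WT libraries alone, where Per2 was at 20.4 CPM in the Xist-low and 31.8 CPM in the Xist-high one. Per1 was at 77.8 and 56.9 CPM in untreated and at 47.2 and 50.1 CPM in treated mice. Its log2 fold change of -0.47 ± 0.13 (SE, adjusted p = 0.401) was -0.22 and not called without Tau replicate 1, and -0.41 and not called with the Xist term. Per3, Cry1 and Cry2 were not called, and had log2 differences of -0.08 ± 0.11, -0.01 ± 0.12 and -0.17 ± 0.09 (SE).

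All 7 repressors had a log2 fold change below 0 and all 3 activators one above 0. The median was -0.35 over the repressors and 0.12 over the activators, beside -0.0023 over all genes tested. For 6 repressors both treated libraries were below both untreated ones, which 20.9% of all genes showed, and for Arntl and Clock both were above, which 20.4% showed (41.3% in either direction). Cry1 was the exception in the first count, at 21.2 and 19.7 CPM in treated against 19.95 and 21.2 CPM in untreated mice. Its negative sign turned under other settings. Striatal genes were lower after UNC0642, with 5 of 6 called, as were 2 of 6 oligodendrocyte genes, beside 3.95% of all genes called lower. Striatal sums were 78.2 and 166 CPM in Tau replicates 1 and 2 and 69.5 to 73.7 CPM in treated mice. Oligodendrocyte sums were 1878 and 5114 CPM and 1945 to 2076 CPM in the same order. The part of these cell types in the clock differences was not tested. Without Tau replicate 2 the log2 fold change was -0.97 in Nr1d1, -0.68 in Per1, -0.52 in Per2 and 0.52 in Arntl.

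**Figure D2:**
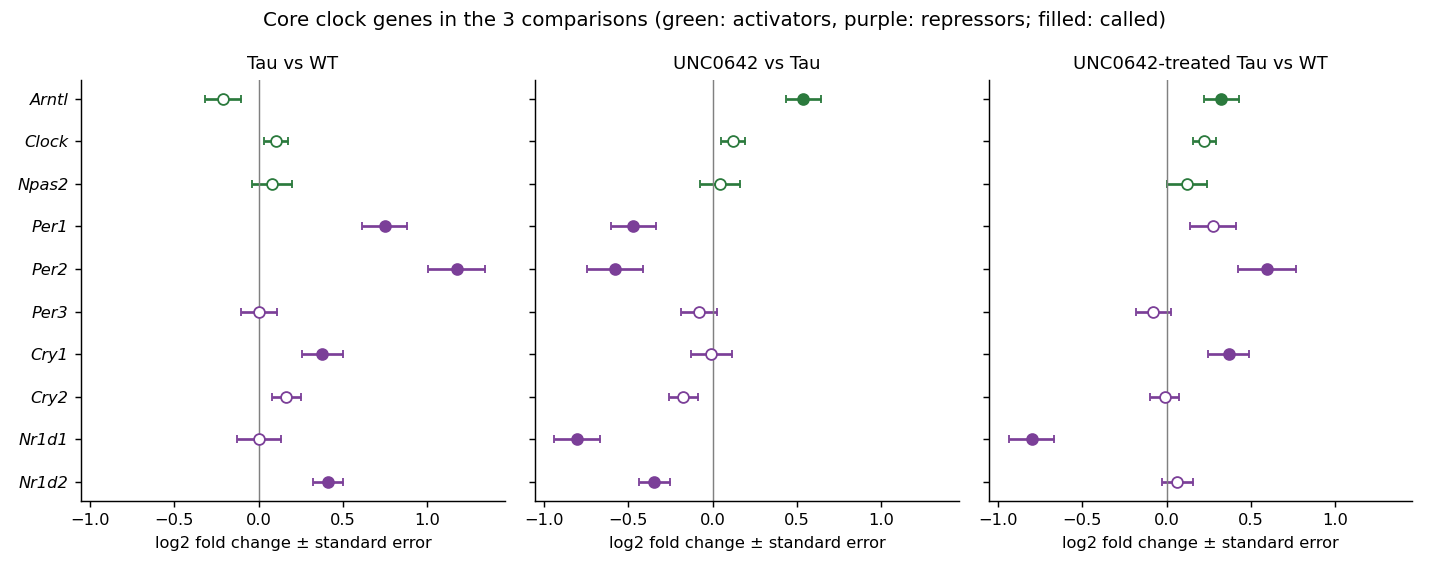
Log2 fold change (x axis) of each of the 10 core clock genes in the 3 comparisons. Activators are green and repressors purple, bars are standard errors, filled points were called, and open points were not. In Tau against WT Per2 lay at 1.18 and Arntl at -0.21, and in UNC0642-treated against untreated Tau Arntl lay at 0.54 and Nr1d1 at -0.80.

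The comparison of UNC0642-treated Tau mice with WT mice, which shares its libraries with the other comparisons, asked where the treated mutant stood relative to normal mice. Arntl, Per2 and Cry1 rose and Nr1d1 fell, 4 of 10 genes beside 9.47% of all genes called in either direction, 3.77% higher and 5.69% lower. After adjustment, 0 clock genes were under 0.05 in the quasi-likelihood test, beside 0.216% of all genes, and 0 in limma-voom, while 5 had an unadjusted p-value under 0.05 and 4 were called by DESeq2. The DESeq2 Wald test put 2 under 0.05 after adjustment, Nr1d1 (adjusted p = 0.00014) and Per2 (adjusted p = 0.0348), beside 1.92% of the genes with an adjusted p, and edgeR with no filter the same 2, beside 2.12%. Nr1d1 was also under 0.05 in edgeR with library size alone (adjusted p = 0.0360), with at least 10 counts in every library (adjusted p = 0.0457) and with only these 2 groups (adjusted p = 0.0383). Per2 was under 0.05 in edgeR with the Xist term (adjusted p = 0.0089). Without the library labelled WT replicate 1, 4 genes were called, and without UNC0642 replicate 1 there were 2.

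Nr1d1 was at 38.3 and 44.1 CPM in WT and at 24.3 and 23.1 CPM in treated Tau mice. It was lower in both treated libraries by a log2 fold change of -0.80 ± 0.13 (SE, adjusted p = 0.0528), which was -0.90 without the library labelled WT replicate 1 and -0.69 against that library alone. Per2 was higher, at 40.3 and 38.8 against 20.4 and 31.8 CPM. Its log2 fold change was 0.60 ± 0.17 (SE, adjusted p = 0.221), and 1 WT library decided its size, since it was 0.31 without the library labelled WT replicate 1 and 0.95 without WT replicate 2. Arntl was at 40.3 and 40.0 CPM in WT and at 54.7 and 46.1 CPM in treated mice, a log2 fold change of 0.33 ± 0.11 (SE, adjusted p = 0.272) that was 0.33 without the library labelled WT replicate 1, and 0.20 and not called without UNC0642 replicate 1.

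Cry1 was at 16.7 and 14.9 CPM in WT and at 21.2 and 19.7 CPM in treated mice. Its log2 fold change was 0.37 ± 0.12 (SE, adjusted p = 0.278), and the call was lost at 0.29 without WT replicate 2, at 0.32 without UNC0642 replicate 1 and at 0.29 with the Xist term, while the value was 0.45 without the library labelled WT replicate 1. Clock had a log2 difference of 0.23 ± 0.07 (SE, adjusted p = 0.262), which stayed under the fold limit, and the libraries of the groups did not overlap. Per1 had a log2 difference of 0.28 ± 0.13 (SE, adjusted p = 0.450), which was not called, and was called at 0.27 with no filter on low counts. Npas2 had a log2 difference of 0.12, Nr1d2 of 0.06, Cry2 of -0.01 and Per3 of -0.08. Both treated libraries were above both WT libraries in 5 genes and below them in 1 gene, against 22.1% and 22.3% of all genes (44.4% in either direction).

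Across the 3 groups, 4 genes (Per1, Per2, Cry1 and Nr1d2) had the order WT, UNC0642, Tau from low to high group mean. In Per1 and Per2 no neighbours in that order overlapped, in Cry1 the UNC0642 and Tau libraries overlapped, and in Nr1d2 the WT and UNC0642 libraries overlapped. Arntl alone ran from Tau through WT to UNC0642, with no overlap between neighbours. Clock and Npas2 ran from WT through Tau to UNC0642, Clock with no overlap and Npas2 with overlap at both steps. Nr1d1 was lowest after UNC0642, and Tau and WT overlapped above it. Per3 and Cry2 ran from UNC0642 through WT to Tau, and WT and UNC0642 overlapped in both. The share of all genes with each order, or with no overlap between any of the 3 groups, was not computed. Per2 was called in all 3 comparisons, and Clock, Npas2, Per3 and Cry2 in none.

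The arms were then set against each other within each library, where scaling cancels, as the mean log2 CPM of the 7 repressors minus that of the 3 activators. The difference was -0.46 and -0.39 in WT, 0.01 and -0.02 in Tau and -0.64 and -0.52 after UNC0642. The Tau libraries were highest and the UNC0642 libraries lowest, with no overlap between groups. The group means differed by 0.42 between Tau and WT, by -0.58 between treated and untreated Tau and by -0.16 between treated Tau and WT. No test was made of this score over chosen genes. The WT and Tau means differed through the repressors, whose mean log2 CPM was 5.63 ± 0.12 in WT and 6.04 ± 0.06 in Tau (SD, n = 2), while the activators were at 6.05 ± 0.07 and 6.04 ± 0.04 (SD, n = 2). In treated Tau mice both arms differed from untreated Tau, with the repressors at 5.69 ± 0.03 and the activators at 6.28 ± 0.05 (SD, n = 2). Without the library labelled WT replicate 1 the difference between Tau and WT was 0.39. With only the Per genes as repressors, treated Tau and WT differed by 0.052 in place of -0.16. The WT libraries were then at -0.90 and -0.68 and the UNC0642 libraries at -0.80 and -0.67, so that these groups overlapped. With medians over members in place of means WT and UNC0642 libraries overlapped as well.

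Means of the repressor families are given as values, with no test, and members of a family did not all share the pattern of its mean. Mean log2 CPM of the 3 Per genes was 5.11 and 5.43 in WT, 5.96 and 5.87 in Tau and 5.52 and 5.57 after UNC0642, and the treated libraries lay between the other groups, while Per3 was called in no comparison. The mean of the 2 Nr1d genes was 6.27 and 6.44 in WT, 6.62 and 6.49 in Tau and 5.96 and 6.02 after UNC0642, with the treated libraries below all others, though Nr1d2, at 158 and 183 CPM after treatment, overlapped with WT at 156 and 171 CPM. For the Cry genes it was 5.47 and 5.42, 5.73 and 5.70, and 5.62 and 5.63. In treated mice Cry1 had a mean of 20.4 CPM beside 20.6 CPM in Tau, and Cry2 one of 119 CPM beside 120 CPM in WT.

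Ratios of counts to Arntl within a library show the same genes without scaling. Per2 had 0.506 and 0.794 counts per Arntl count in WT, 1.61 and 1.80 in Tau and 0.736 and 0.841 after UNC0642. Tau libraries stood apart, and WT and treated libraries overlapped. Nr1d1 had 0.949 and 1.10 counts per Arntl count in WT, 1.32 and 1.06 in Tau and 0.444 and 0.50 after UNC0642, and there the treated libraries stood apart. The ratio of Nr1d1 to its relative Nr1d2 was 0.246 and 0.258 in WT, 0.221 and 0.161 in Tau and 0.153 and 0.126 after UNC0642.

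**Figure D3:**
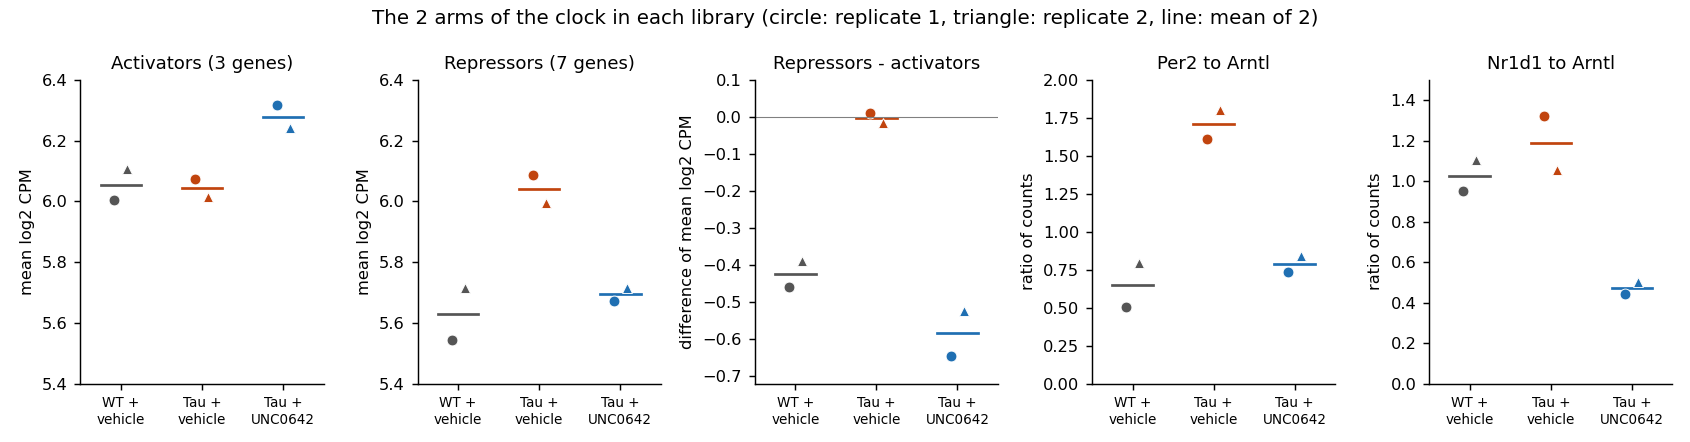
The arms of the clock in each library. From left to right, the y axes give the mean log2 CPM of the 3 activators, that of the 7 repressors, the difference of these means, and the ratios of Per2 and Nr1d1 counts to Arntl counts, by group on the x axis, with circles for replicates 1, triangles for replicates 2 and lines for means of 2. The difference was near 0 in both Tau libraries, at 0.01 and -0.02, and between -0.64 and -0.39 in the other 4.

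The genes whose profile over the 6 libraries was most like that of Per2, by the root mean square distance of centred log2 CPM among 16377 genes with a mean of at least 1 CPM, were Dram1 and Hist1h1b (0.148 each), Cmklr1 (0.160), Gm43713 (0.181) and AC169509.1 (0.186). All 5 were at low levels, the highest being Hist1h1b at 2.56 to 6.15 CPM. Per1 ranked 66 and Nr1d2 272 on this list. Nearest to Arntl were Drd5 (0.0335), Gm37366 (0.0555), Anxa2 (0.0702), Zfp422-ps (0.0749) and Dkk2 (0.0786), and Clock ranked 856.

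Other genes of the pathway were read from lists. Of the ROR receptors, which activate Arntl through the RRE, neither Rora nor Rorb was called in any comparison. The kinases and ubiquitin ligase subunits that set the life of PER and CRY proteins were read through Csnk1d, Csnk1e, Csnk2a1, Gsk3b, Fbxl21, Btrc and Fbxw11, and none of these was called. Among 13 cofactors and chromatin partners, 0 were called in Tau against WT and 0 in treated Tau against WT. Of all genes, 9.81% and 9.47% were called in these comparisons, in either direction. Between treated and untreated Tau 3 cofactors were called, beside 7.69% of all genes. In treated against untreated Tau, Sfpq, an RNA-binding partner of PER, rose by 0.29 ± 0.10, and Arntl2, a BMAL1 relative, by 0.72 ± 0.28, while Kmt2a, a histone methyltransferase that works with CLOCK, had a log2 fold change of -0.26 ± 0.11 (SE, adjusted p of 0.461 to 0.515). The absence of calls against WT in these lists depends on the library labelled WT replicate 1. Without that library, the log2 fold change in Tau against WT was -0.31 in Sfpq and -0.80 in Arntl2. With it these values were -0.17 and -0.53. In treated Tau against WT without that library, the log2 fold change was -0.34 in Crebbp, -0.32 in Kmt2a and -0.30 in Gsk3b.

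Clock output genes carry E-boxes or respond to the clock proteins. In Tau against WT 2 of 11 rose, Bhlhe40 and Ciart, and none fell, beside 3.72% of all genes called higher and 6.1% lower. Bhlhe40, a repressor that competes for E-boxes, was at 96.1 and 105 CPM in WT and at 182 and 152 CPM in Tau, a log2 fold change of 0.74 ± 0.11 (SE, adjusted p = 0.0416). Ciart, a repressor of the BMAL1 pair, was at 12.4 CPM in both WT libraries and at 18.7 and 19.4 CPM in Tau, a log2 fold change of 0.62 ± 0.15 (SE, adjusted p = 0.196).

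In treated against untreated Tau 1 output gene rose and 5 fell, beside 3.73% and 3.95% of all genes. Dbp, a D-box activator driven directly by BMAL1, was at 45.9 and 40.6 CPM in untreated and at 17.5 and 22.9 CPM in treated mice, and 35.0 and 39.7 CPM in WT. Both treated libraries were below all 4 others, with a log2 fold change of -1.10 ± 0.14 (SE, adjusted p = 0.0549). Ciart fell by 0.88 ± 0.15 on the log2 scale to 9.0 and 11.6 CPM, Tspan4 by 0.56 ± 0.18, Bhlhe41 by 0.48 ± 0.11 and Usp2 by 0.34 ± 0.11 (SE). Nfil3, the D-box repressor, was at 8.65 and 7.90 CPM in untreated and at 11.96 and 10.8 CPM in treated mice, a log2 fold change of 0.45 ± 0.16 (SE, adjusted p = 0.467). Bhlhe40 did not follow Ciart, with a log2 difference of -0.03 ± 0.11 (SE, adjusted p = 0.960).

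In treated Tau against WT 2 output genes rose, Bhlhe40 with a log2 fold change of 0.71 ± 0.11 (SE, adjusted p = 0.0390) and Nfil3 with 0.44 ± 0.16 (SE, adjusted p = 0.309), and 3 fell, Dbp at -0.88 ± 0.14 (SE, adjusted p = 0.0450), Tspan4 at -0.83 ± 0.18 (SE, adjusted p = 0.115) and Usp2 at -0.42 ± 0.11 (SE, adjusted p = 0.186), beside 3.77% of all genes called higher and 5.69% lower. Without the library labelled WT replicate 1 the counts of output genes were the same, 2 and 0 in Tau and 2 and 3 in treated Tau against WT, with Bhlhe40 at 0.67 and 0.65 in these comparisons and Dbp at -0.97 in the second.

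**Figure D4:**
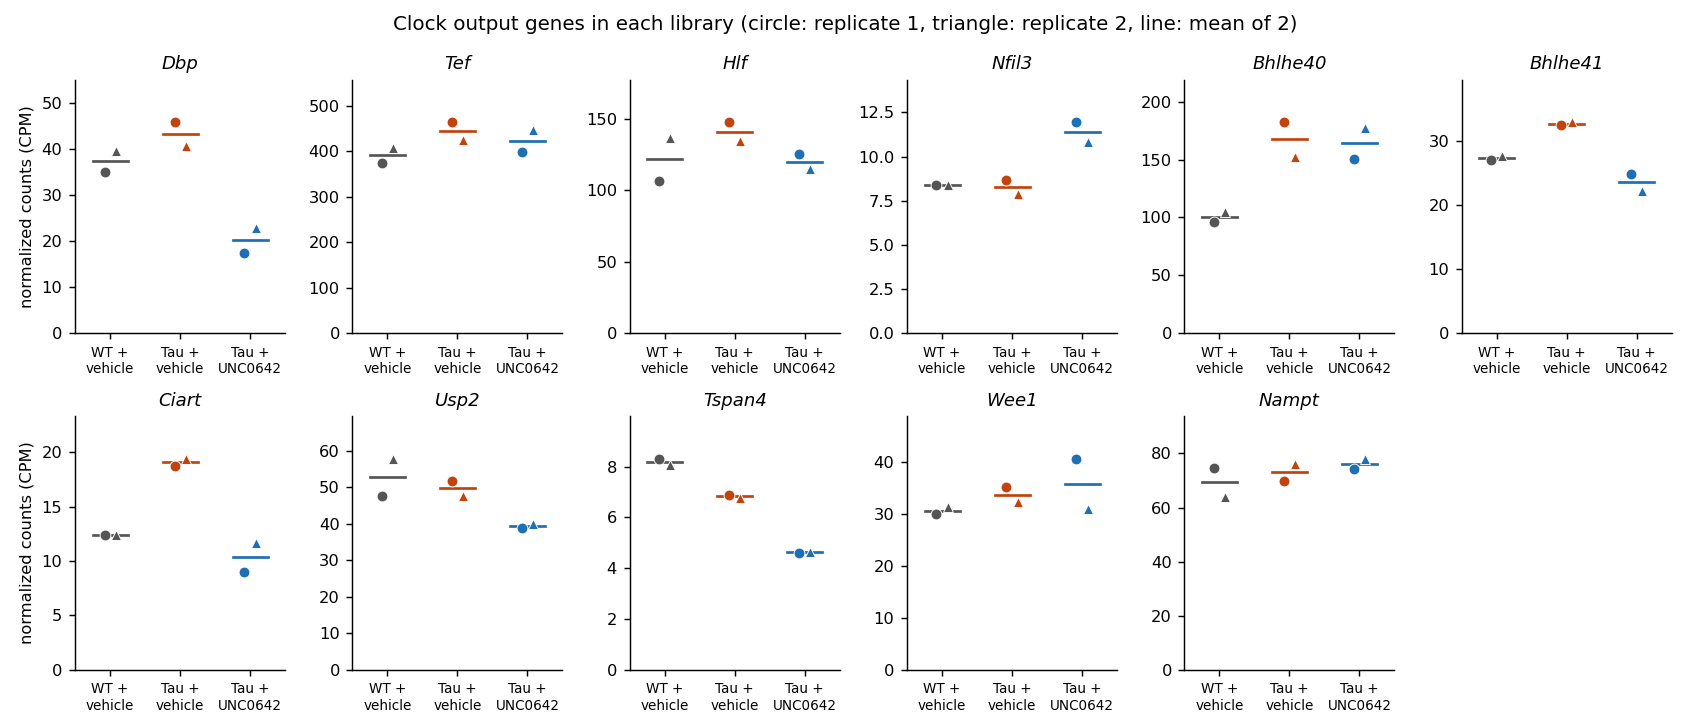
Level of the 11 clock output genes (y axis, CPM, starting at 0) in the 6 libraries, by group on the x axis, with circles for replicates 1, triangles for replicates 2 and lines for means of 2. Dbp was at 17.5 and 22.9 CPM after UNC0642 against 35.0 to 45.9 CPM in the other 4 libraries, and Bhlhe40 was at 96.1 and 105 CPM in WT against 150.5 to 182 CPM in the other 4.

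Genes that respond to the signals known to induce Per1 and Per2 were read from 3 more lists, to be set beside the 3.72% of all genes called higher and 6.1% lower in Tau against WT and the 3.73% and 3.95% in treated against untreated Tau. Of 10 glucocorticoid response genes, 8 rose in Tau against WT and none fell, with a median log2 fold change of 0.67 and Plin4 at 2.27 ± 0.32 and Sgk1 at 1.30 ± 0.21 (SE), and their summed level was 277 to 279 CPM in WT, 468 to 581 CPM in Tau and 423 to 513 CPM after UNC0642. In treated against untreated Tau 1 of them rose and 2 fell, Mt2 at -0.73 ± 0.20 and Plin4 at -0.67 ± 0.30 (SE). Of 12 activity-induced genes, 5 rose and 2 fell in Tau against WT, and 6 rose and none fell in treated against untreated Tau, with summed levels of 491 to 652 CPM in WT, 772 to 785 CPM in Tau and 1051 to 1063 CPM after UNC0642. Egr2 of this list was at 0.84 ± 0.21 in the first and 0.98 ± 0.20 in the second comparison (SE), Btg2 at -1.07 ± 0.17 in the first and Fos at 0.73 ± 0.24 in the second. Of 7 temperature-regulated genes, 2 rose and 1 fell in Tau against WT, Cirbp at -0.43 ± 0.16 with Hspa8 at 0.81 ± 0.43 and not called, and 3 rose after UNC0642, Hspa1b at 1.15 ± 0.22 and Hspa1a at 0.96 ± 0.32 (SE). Arc carried much of the activity-induced sum, at means of 203 CPM in WT, 351 CPM in Tau and 545 CPM after UNC0642. Without the library labelled WT replicate 1, 8 glucocorticoid response genes rose and none fell in Tau against WT, 9 activity-induced genes rose and 1 fell, and 2 temperature-regulated genes rose and none fell (Cirbp at -0.11 was no longer called), beside 4.38% of all genes called higher and 4.64% lower. The part of these responses in the levels of the clock genes was not tested.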

How the data were processed

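RNA of bulk PFC was sequenced from biological duplicates, 6 libraries in 3 groups. As the study describes, ribosomal RNA was removed before stranded libraries were made, and reads were trimmed with Cutadapt and aligned with TopHat2. The authors deposited counts per gene from featureCounts, without normalization. The submitters' processing notes also list SAMtools, edgeR and mm10. Whether counting used strand is not given in the sources used here, so overlapping antisense genes are named. The tables of WT replicate 2 and of Tau replicate 2 held dates in place of 26 gene symbols, and these rows were joined by position.

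Counts were filtered with filterByExpr (minimum count 10, minimum total 15), scaled by TMM (factors 0.966 to 1.04) and fitted with edgeR 4.0.16 (R 4.3.3), a mean per group over all 6 libraries, with 3 residual degrees of freedom and a biological coefficient of variation of 12.3%. A call needed a 1.2-fold difference with an unadjusted p-value under 0.05, and p-values were adjusted by Benjamini-Hochberg over 20409 genes. Standard errors are the log2 fold change over the square root of the F statistic, and the arm score used log2 CPM with a prior count of 2. P-values measure the spread between libraries within the groups, with an estimate shared by all 3 groups. They do not cover differences between groups in collection time or in the Xist pattern. In simulated counts for Tau against WT (19825 genes, 200 changed 3-fold), 94.5% of changed genes were called in the right direction and 5.11% of unchanged genes were called. Of the clock genes called in this comparison of the data, Per2 differed most, by 2.26-fold. The simulation does not give the share called at such smaller changes. Positions and exon lengths came from GENCODE M21 (GRCm38), and promoter windows from RefSeq. No library duplicated another. Tables were made with Python 3.11.15, pandas 2.3.3 and numpy 2.4.6, and figures with matplotlib 3.10.9.

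The 10 genes and all lists were chosen with earlier results of these data known. Some genes of the lists are not reported here. Named were the 10 genes, pathway genes called in at least 1 comparison, the 2 largest changes of each companion list, and the 5 genes most like Per2 and Arntl. Alternatives were DESeq2 1.42.0 size factors and Wald test, library size alone, limma-voom (limma 3.58.1), other filters (none, or 10 counts in each library), fits of 2 groups, a replicate block, a term for the Xist pattern, a fold change of 1.5 or none, adjusted p-values, other arm scores and fits without each library. Reading the lists without the library labelled WT replicate 1 was chosen after seeing the data.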

Additional observations from a re-analysis of the deposited data

How the results depend on the processing

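With 2 mice per group and no time of collection, the calls rest on the spread between these libraries. Of the values of single clock genes under the alternatives, 403 kept their direction and side of the threshold, 10 lost and 5 gained a call, and 32 changed sign. The count of clock genes called in Tau against WT, treated against untreated Tau and treated Tau against WT (4, 5 and 4) became 2, 1 and 2 at a fold change of 1.5, 1, 0 and 0 with adjusted p-values in edgeR's quasi-likelihood test (3, 2 and 2 in the DESeq2 Wald test, 1, 0 and 0 in limma-voom and 3, 5 and 2 in edgeR with no filter), and 2 in the second comparison with the Xist term. Leaving out 1 library gave 3 to 4, 4 to 5 and 2 to 5. The arm contrast in Tau against WT (0.42) was 0.66 with only the Per genes, 0.48 without the Cry genes and 0.48 with medians, and 0.39 to 0.46 without single libraries. In treated against untreated Tau (-0.58) it was -0.68 without the Cry genes, -0.67 without Npas2 and -0.64 to -0.52 without single libraries. In treated Tau against WT (-0.16) it was 0.052 with only the Per genes, -0.068 with medians and -0.22 to -0.10 without single libraries.

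Changes of sign concerned genes that were not called, apart from Per2. In Tau against WT, Per3 and Nr1d1 (0.00 each) were at -0.066 and -0.067 with library size alone, -0.0028 and -0.0013 with no filter, -0.020 and -0.019 with at least 10 counts everywhere, -0.0041 and -0.0035 with 2 groups alone and -0.12 and -0.093 with the Xist term, which also put Npas2 at -0.054. Cry1 in treated against untreated Tau was 0.021 with library size alone. The Xist term put Per2 at 0.060 and Per3 at 0.18 in treated against untreated Tau, and Per3 at 0.059 and Cry2 at 0.025 in treated Tau against WT. Over fits without single libraries the ranges in Tau against WT were -0.057 to 0.23 for Npas2, -0.13 to 0.14 for Per3 and -0.19 to 0.17 for Nr1d1. In treated against untreated Tau they were -0.048 to 0.14 for Npas2 and -0.064 to 0.045 for Cry1, and in treated Tau against WT -0.013 to 0.27 for Npas2, -0.21 to 0.060 for Per3, -0.080 to 0.054 for Cry2 and -0.044 to 0.16 for Nr1d2. The causes of these changes were not tested.

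Replicate numbers share only a name: deviations of same-numbered libraries correlated at -0.03 between WT and Tau, -0.02 between WT and UNC0642 and -0.0033 between Tau and UNC0642. A replicate block left the calls at 4, 5 and 4, and put Nr1d1 at -0.0044 in Tau against WT.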
